A study of Trichechus manatus latirostris with 11 samples.

Results

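NF-kB is a family of transcription factors that switch on inflammatory genes when leukocytes meet microbial products or cytokines such as tumor necrosis factor and interleukin 1. In resting cells, IkB proteins hold NF-kB dimers in the cytoplasm. A kinase complex marks the IkB proteins for degradation, the freed dimers enter the nucleus, and among the genes they induce are their own inhibitors, which close a negative feedback loop. The genes described here are TNFAIP3 and NF-kB subunits and inhibitors: the feedback inhibitors TNFAIP3, NFKBIA and NFKBIE, the nuclear IkB proteins NFKBIZ and BCL3, and the DNA-binding subunits NFKB1, NFKB2, REL, RELA and RELB. They were chosen by gene symbol, with the group means of these data already known, and 7 of the 10 matched a row among 15298 rows of RefSeq transcript records. REL, RELA and RELB matched no row by symbol and were not analysed here.

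The RNA came from buffy coats, the leukocyte-rich layer that forms when blood is centrifuged, taken from 11 adult Florida manatees (Trichechus manatus latirostris), and was sequenced after removal of ribosomal and globin RNA. The red tide group held 4 animals sampled at Lowry Park Zoo, where they were treated for illness from the toxins of a bloom of the alga Karenia brevis, either on arrival or after a week of treatment. The control group of 7 held 2 animals from the Indian River Lagoon, 4 from Crystal River and 1 at Lowry Park Zoo that was recovering from pneumonia. The comparison asked how blood leukocytes of the red tide animals differed from those of animals sampled away from the bloom. Sampling dates differed between the groups and, apart from the 1 control at the zoo, so did places. For the red tide animals the methods also describe immediate freezing, while the sample labels describe storage in RNAlater, an RNA preservative, for all animals. The effects of these differences and of red tide cannot be told apart.

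For each row the table gave the authors' mean normalized count, that is reads divided by a size factor for library depth, over all libraries and in each group, with no value of a single library. The columns do not name their groups. In each row the overall mean equalled the first group mean weighted by 4 and the second weighted by 7, divided by 11. The relative deviation was at most 3.34e-09. The means are therefore called the 4-library mean and the 7-library mean. That they stand for the red tide and the control group rests on these sizes and on the title of the table, which names red tide first. The fold change kept in the table divides the second mean by the first and so runs opposite to the ratios given here. Read as red tide over control, it would reverse every direction, so differences are given between the 4-library and the 7-library mean and not as higher or lower in red tide. The size factors could be read from the lowest means and were 1.56, 1.03, 0.620 and 0.372 in the 4 libraries, and 0.702 to 1.73 in the 7 libraries with a median of 1.17. Total reads per library are not known from group means.

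All 7 genes with a row had the higher value in the 4-library mean, by most for TNFAIP3, NFKBIA and NFKBIZ and by least for BCL3. At least 2-fold higher were 4 genes, TNFAIP3, NFKBIA, NFKBIZ and NFKBIE, and 0 genes were 2-fold higher in the 7-library mean. Over all 15298 rows, 8629 had the higher value in the 4-library mean, 23.9% were at least 2-fold higher in that mean and 10.4% in the 7-library mean. Among the 10225 rows with an overall mean of at least 10, a limit that all 7 genes passed, 5034 had the higher value in the 4-library mean, and the 2-fold shares were 12.3% and 9.59%. The genes were selected on these same means, so the counts are a description and no test was made. On the log2 scale, with the 4-library mean divided by the 7-library mean, the median ratio was 1.27 for the 7 genes, 0.14 over all rows and -0.012 over rows with a mean of at least 10. Rescaling both columns to the same total lowers each log2 ratio by 0.14, which left BCL3, the lowest of the 7 genes, at 0.20.

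**Figure D1:**
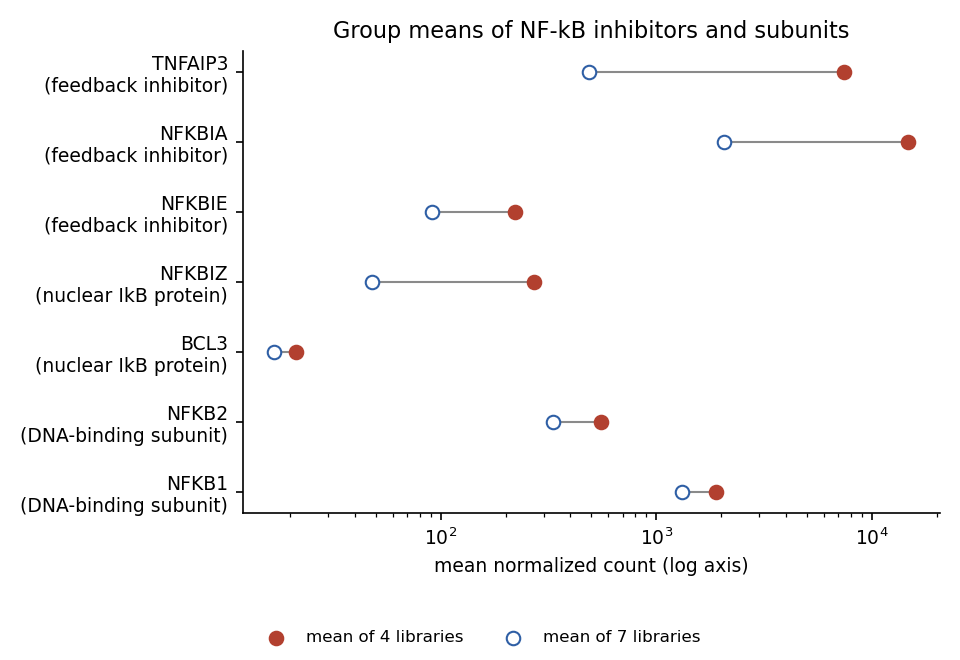
Mean normalized count (log axis) of each gene with a row over 4 libraries (filled) and 7 libraries (open), grouped by the role of the protein. The filled point lies to the right for all 7 genes, and the distance is widest for TNFAIP3 (7412 against 486). Positions of different genes are not comparable, because longer transcripts give more reads.

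TNFAIP3, an enzyme that edits ubiquitin chains on signalling proteins upstream of the kinase complex and so shuts the pathway off, had a 4-library mean of 7412 normalized counts and a 7-library mean of 486 (record XM_004368884.1). The 4-library mean was 15.2-fold higher, a log2 ratio of 3.93. It ranked 115th of the 10225 rows with an overall mean of at least 10 when these were ordered by falling log2 ratio. Among all 15298 rows TNFAIP3 ranked 560th. No other gene of the group had a higher ratio.

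NFKBIA encodes IkB-alpha, the classical cytoplasmic inhibitor, which is degraded within minutes of stimulation and then made again from newly induced mRNA. Its means were 14717 normalized counts over the 4 libraries and 2059 over the 7 libraries (XM_004376510.1). The ratio was 7.15-fold, or 2.84 on the log2 scale, at rank 212 of the same 10225 rows. Among all 15298 rows NFKBIA ranked 1140th. Transcripts of NFKBIA made up 0.288% of the summed normalized counts in the 4-library means and 0.0444% in the 7-library means. NFKBIE, which encodes IkB-epsilon, an inhibitor that acts more slowly than IkB-alpha, differed less. Its means were 220.2 and 91.5 normalized counts (XM_004379514.1), a ratio of 2.41-fold and a log2 ratio of 1.27.

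The nuclear IkB proteins do not hold NF-kB in the cytoplasm but bind its dimers on DNA and alter transcription there, and the 2 genes of this kind differed from each other. NFKBIZ encodes IkB-zeta, a nuclear coactivator needed for a later set of inflammatory genes that includes IL6. Its 4-library mean was 272 normalized counts and its 7-library mean 48.0 (XM_004378148.1), 5.67-fold apart with a log2 ratio of 2.50. BCL3, a partner of homodimers of the smaller NF-kB subunits, had means of 21.4 and 16.9 (XM_004388827.1), 1.27-fold apart with a log2 ratio of 0.34.

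BCL3 was the only one of the 7 genes weak enough for reads of single libraries to be recovered, in the 4-library group alone. In order of falling size factor its reads were 26, 25, 21 and 4, which gave normalized counts of 16.7, 24.3, 33.8 and 10.8, or 21.4 ± 9.98 (SD, n = 4). The 7-library mean of 16.9 lay inside this range, above the values of 2 of the 4 libraries. With single libraries left out, the log2 ratio lay between 0.029 and 0.56.

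The DNA-binding subunits with a row, NFKB1 and NFKB2, encode precursor proteins that are processed into the smaller subunits of the classical and the alternative dimers, and the unprocessed precursors themselves act as IkB-like inhibitors. NFKB1 had a 4-library mean of 1888 and a 7-library mean of 1322 normalized counts (XM_004380249.1). The ratio was 1.43-fold, or 0.51 on the log2 scale. NFKB2 had means of 553 and 334 (XM_004370078.1), 1.66-fold apart, a log2 ratio of 0.73. Both are known targets of NF-kB, as are TNFAIP3 and NFKBIA.

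Set against NFKB1, differences in depth or scaling between the groups cancel out. From the 7-library to the 4-library mean, the ratio of TNFAIP3 to NFKB1 was 10.7-fold higher and that of NFKBIA to NFKB1 5.01-fold higher. For NFKBIZ the corresponding value was 3.97-fold and for NFKBIE 1.69-fold. NFKB2 stood 1.16-fold higher relative to NFKB1, and BCL3 stood at 0.886 of its ratio in the 7-library mean. TNFAIP3 and the 4 IkB genes had a median log2 ratio of 2.50 with a range of 0.34 to 3.93, beside 0.51 and 0.73 for the precursors. Together the 7 genes made up 0.490% of the summed normalized counts in the 4-library means and 0.0940% in the 7-library means.

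The table gives no replicate error for these means and the authors' p-values were not used. A spread was therefore borrowed from rows whose reads could be recovered. In the 3779 rows with a 4-library mean between 20 and 100 the median coefficient of variation among the 4 libraries was 43.2%. In the 1091 rows with a 7-library mean between 3 and 6 it was 87.6% among the 7 libraries, counting error included. The variation beyond counting error, pooled over these rows, was 47.3% and 82.8%. This is the root of a mean of squares over rows, weighted to higher means, and not a median, so these values are not to be set against the medians. With them the SD of a log2 ratio of group means comes to 0.57. The second value comes from weakly expressed rows. In the 4-library group spread was wider at low means (95.5% between 3 and 6), and for the 7-library group no spread at higher means was available. At 2 SD on either side, the log2 ratio extended from 2.80 to 5.06 for TNFAIP3, from 1.71 to 3.97 for NFKBIA, from 1.37 to 3.63 for NFKBIZ and from 0.14 to 2.40 for NFKBIE. The same range extended from -0.40 to 1.86 for NFKB2, from -0.62 to 1.64 for NFKB1 and from -0.79 to 1.47 for BCL3. After rescaling to the same total, the log2 ratio of NFKBIE was 1.12, beside 2 SD of 1.13. These ranges describe the size of a difference beside the spread of other genes and are not a test. The genes were selected on these same means and the SD is borrowed, so whether a range includes 0 decides nothing.

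**Figure D2:**
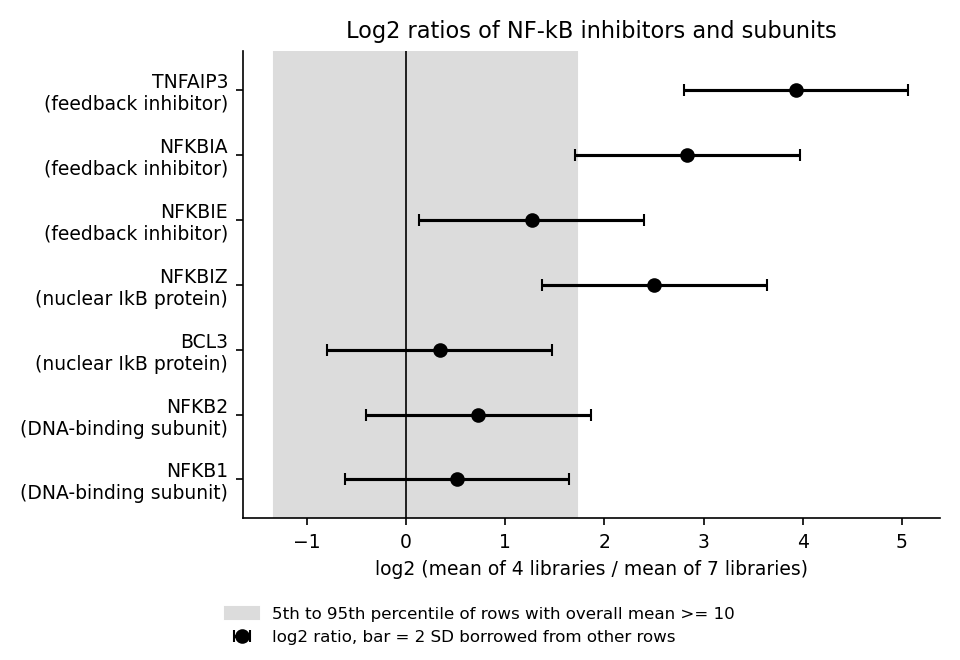
Log2 ratio (4-library mean divided by 7-library mean) for each gene (points), with bars of 2 SD borrowed from weakly expressed rows, which are no replicate error of the gene itself. The shaded band spans the 5th to the 95th percentile of the 10225 rows with an overall mean of at least 10, -1.33 to 1.72. TNFAIP3 (3.93), NFKBIA (2.84) and NFKBIZ (2.50) lie to the right of the band, and NFKBIE, NFKB2, NFKB1 and BCL3 lie within it. Over all 15298 rows the 95th percentile was 3.45, and only TNFAIP3 lies beyond that value.

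The other genes of the pathway were grouped by role. Of 101 listed genes, 62 had a row. Of these, 21 were at least 2-fold higher in the 4-library mean, 11 were at least 2-fold higher in the 7-library mean and 30 differed by less. Of the 21 and the 11 genes, 17 and 10 had an overall mean of at least 10. The shares at least 2-fold higher in the 4- and the 7-library mean were 23.9% and 10.4% over all rows. They were 12.3% and 9.59% over rows with an overall mean of at least 10. The counts of each list below are to be read beside these shares. The median log2 ratio over the 62 was 0.13. No test compared the lists. Ligands lay on both sides, and 12 of 20 target genes were at least 2-fold higher in the 4-library mean. Less than 2-fold apart were 19 of the 24 kinases and adaptors. The last count is near the share of rows with an overall mean of at least 10 that differed by less than 2-fold.

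**Figure D3:**
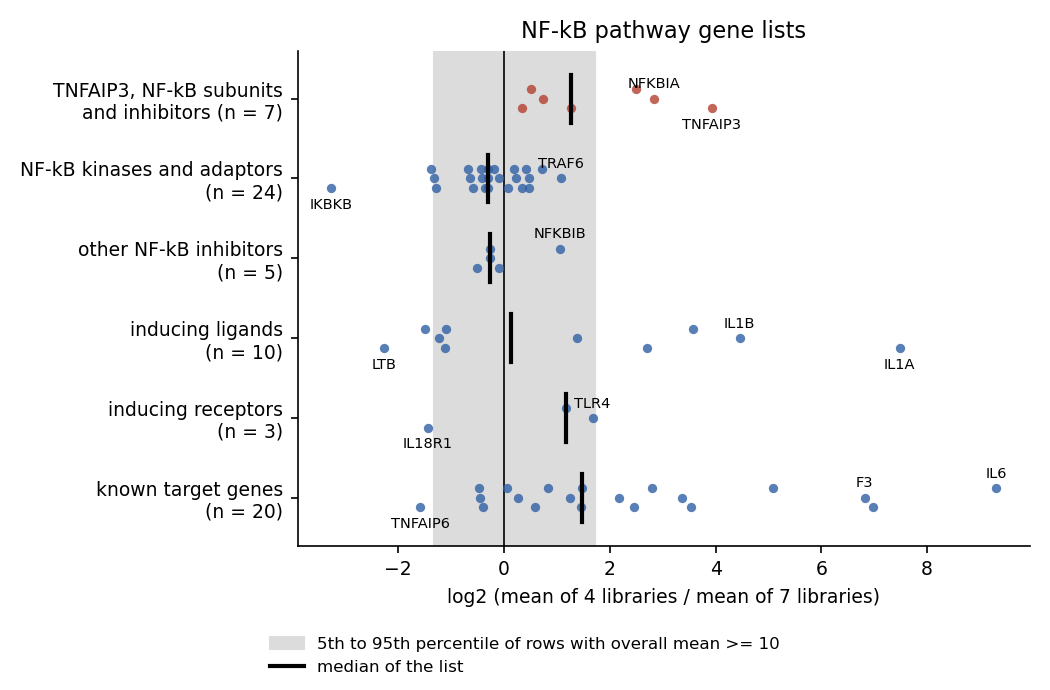
Log2 ratio (4-library mean divided by 7-library mean) for each gene with a row (points) in the 5 pathway lists, below TNFAIP3 and the NF-kB subunits and inhibitors. Black bars are list medians, from -0.30 for kinases and adaptors to 1.47 for known target genes, and the shaded band spans the 5th to the 95th percentile of rows with an overall mean of at least 10. The vertical offset within a list has no meaning.

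Among the inducing ligands all 10 had a row, 5 at least 2-fold higher in the 4-library mean (IL1A, IL1B, LTA, TNFSF11 and TNF) and 5 at least 2-fold higher in the 7-library mean (LTB, TNFSF13B, IL18, CD40LG and TNFSF14). TNFSF14, at a log2 ratio of -1.09, came under 2-fold when any of 3 of the 4 libraries was left out (-0.88, -0.999 and -0.68 without size factors 1.56, 1.03 and 0.372) and reached -2.26 without the library with size factor 0.620. IL1A, which encodes the interleukin 1 form that is active without processing, had means of 3116 and 17.4 normalized counts over the 4 and the 7 libraries, a log2 ratio of 7.48. IL1B, the secreted form made by monocytes and neutrophils, had means of 19298 and 880.4, a log2 ratio of 4.45. TNF, the founding member of its cytokine family, had means of 102 and 39.6 and a log2 ratio of 1.37, well under those of the interleukin 1 genes. LTB, a membrane ligand of lymphocytes that feeds the alternative pathway, went the other way with means of 84.6 and 407 and a log2 ratio of -2.27.

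Receptors were covered poorly, with 3 of 11 having a row. TLR4, the receptor for bacterial lipopolysaccharide, had means of 1906 and 597, a log2 ratio of 1.67. CD40, a receptor of B cells and antigen-presenting cells, had a log2 ratio of 1.17. IL18R1, a chain of the interleukin 18 receptor, was lower in the 4-library mean, with a log2 ratio of -1.44.

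Of 30 kinases and adaptors 24 had a row, with a median log2 ratio of -0.30. At least 2-fold higher in the 4-library mean was 1 gene, TRAF6 (log2 ratio 1.08), an adaptor ubiquitin ligase downstream of interleukin 1 and Toll-like receptors, and with both columns rescaled to the same total it fell under 2-fold (0.94). At least 2-fold higher in the 7-library mean were 4 genes, IKBKB, MAP3K14, TAB1 and MYD88. The 3 subunits of the IkB kinase complex did not share a direction. CHUK, a catalytic subunit, had means of 1506 and 1081 normalized counts with a log2 ratio of 0.48. IKBKG, the regulatory subunit, had means of 81.9 and 61.5, a log2 ratio of 0.41, and normalized counts of 69.3, 77.9, 124.1 and 56.5 in the 4 libraries, so that its 7-library mean lay inside their range. IKBKB, the other catalytic subunit, was weakly expressed, with means of 1.61 and 15.6 and a log2 ratio of -3.28. It passed the overall mean of 10 only through its 7-library mean.

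The 4-library mean of IKBKB rested on 8 reads, 4 in each of the libraries with size factors 1.56 and 1.03 and 0 in the others. Without the library with size factor 1.03 its log2 ratio was -4.19, and without either library with 0 reads it was -2.86. MAP3K14, the kinase that starts the alternative pathway, had means of 67.9 and 177.8 and a log2 ratio of -1.39. Its values in the 4 libraries were 57.1, 21.4, 61.2 and 131.8, all below the 7-library mean. TAB1, a partner of the kinase that activates the IkB kinase complex, had a log2 ratio of -1.33 and MYD88, the adaptor shared by interleukin 1 and Toll-like receptors, -1.28. With single libraries left out, the log2 ratio of MAP3K14 lay between -1.93 and -1.09. The corresponding range was -1.85 to -1.11 for TAB1 and -1.57 to -1.06 for MYD88.

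Other inhibitors of NF-kB were also covered poorly, and no test compared them with TNFAIP3 and NFKBIA. Of 14 listed genes 5 had a row, and their median log2 ratio was -0.26. NFKBIB, which encodes IkB-beta, the other classical cytoplasmic inhibitor, was the 1 gene at least 2-fold higher in the 4-library mean, with means of 75.6 and 36.4 and a log2 ratio of 1.05. Its normalized counts in the 4 libraries were 57.1, 81.8, 69.3 and 94.2, or 75.6 ± 16.0 (SD, n = 4), and each lay above the 7-library mean. The log2 ratio was under 2-fold after rescaling to the same total (0.91) and without the library with size factor 0.372 (0.93). ITCH and RNF11, which act together with TNFAIP3 in a ubiquitin-editing complex, had log2 ratios of -0.27 and -0.52. NFKBID, TNIP1, TNIP2, TNIP3, CYLD, TRAF1 and BIRC3 matched no row by symbol and were not analysed here.

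Of 38 known target genes 20 had a row. At least 2-fold higher in the 4-library mean were 12, and 1, TNFAIP6 (log2 ratio -1.58), a secreted protein that binds hyaluronan, was at least 2-fold higher in the 7-library mean. IL6, the cytokine that drives the acute phase response, had a 4-library mean of 597 normalized counts and a 7-library mean of 0.941, a log2 ratio of 9.31. The latter mean rested on 10 reads in 3 of the 7 libraries, and without the library with size factor 1.73, which held 6 of them, the log2 ratio was 10.17. F3, tissue factor, which starts coagulation, had means of 473 and 4.19 and a log2 ratio of 6.82, with reads in 6 of the 7 libraries. Both IL6 and F3 passed the overall mean of 10 only through their 4-library means.

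CCL20, a chemokine that attracts lymphocytes and dendritic cells, could be followed in all 11 libraries. Its normalized counts were 10.3, 36.0, 195.0 and 5.38 in the 4 libraries. In the 7 libraries the median was 0, the lowest 0 and the highest 2.85, from 3 reads in all. All 4 libraries were thus higher than any of the 7. Among the 4448 rows with reads recovered in all 11 libraries, 2.81% showed this separation. Reads were searched up to a mean of 100 in the 4 libraries but only 6 in the 7, which favours genes low in the 7. CCL20 also passed the overall mean of 10 only through its 4-library mean (61.7 against 0.489). The separation is thus a description and not a test. The fold of the means was 126, with a counting interval of 43.1 to 611 (95%, Poisson, for the 3 reads alone), and the log2 ratio of 6.98 became 5.14 without the library with size factor 0.620 and 9.32 without the 7-group library with size factor 0.702.

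Reads in all 11 libraries were also recovered for CSF1, BCL2L1, SELE, TNFSF11 and LTA, which are named because their reads could be recovered and not by the rule for named genes. CSF1, the growth factor of macrophages, had normalized counts of 92.4, 12.7, 29.0 and 8.07 in the 4 libraries and from 0 to 14.2 with a median of 5.03 in the 7 libraries. The groups overlapped, with 2 of the 4 libraries above the highest of the 7, and the log2 ratio of 2.81 fell to 1.71 without the library with size factor 1.56. BCL2L1, an inhibitor of apoptosis, had 6.41, 11.7, 17.7 and 5.38 against 0.839 to 7.68 with a median of 2.72, again with 2 of the 4 above the highest of the 7.

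The remaining genes of this kind were close to the limit of detection. SELE, an adhesion molecule of activated endothelium, had normalized counts of 2.57, 8.76, 4.84 and 26.9 in the 4 libraries against a median of 0 and a highest value of 9.05 in the 7, and 1 library lay above that value. Its log2 ratio of 2.47 was 1.47 without the library with size factor 0.372 and 3.82 without the 7-group library with size factor 1.10. TNFSF11, the ligand that drives osteoclast formation, had 0, 14.6, 24.2 and 8.07 against a highest value of 5.70, a log2 ratio of 2.71 that was 2.08 without the library with size factor 0.620 and 3.36 without the 7-group library with size factor 0.702. For LTA, a lymphocyte cytokine related to TNF, there were 5 reads in the 4 libraries and 2 reads in the 7, a fold of 11.9 with a counting interval of 3.30 to 98.3 for the 2 reads.

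**Figure D4:**
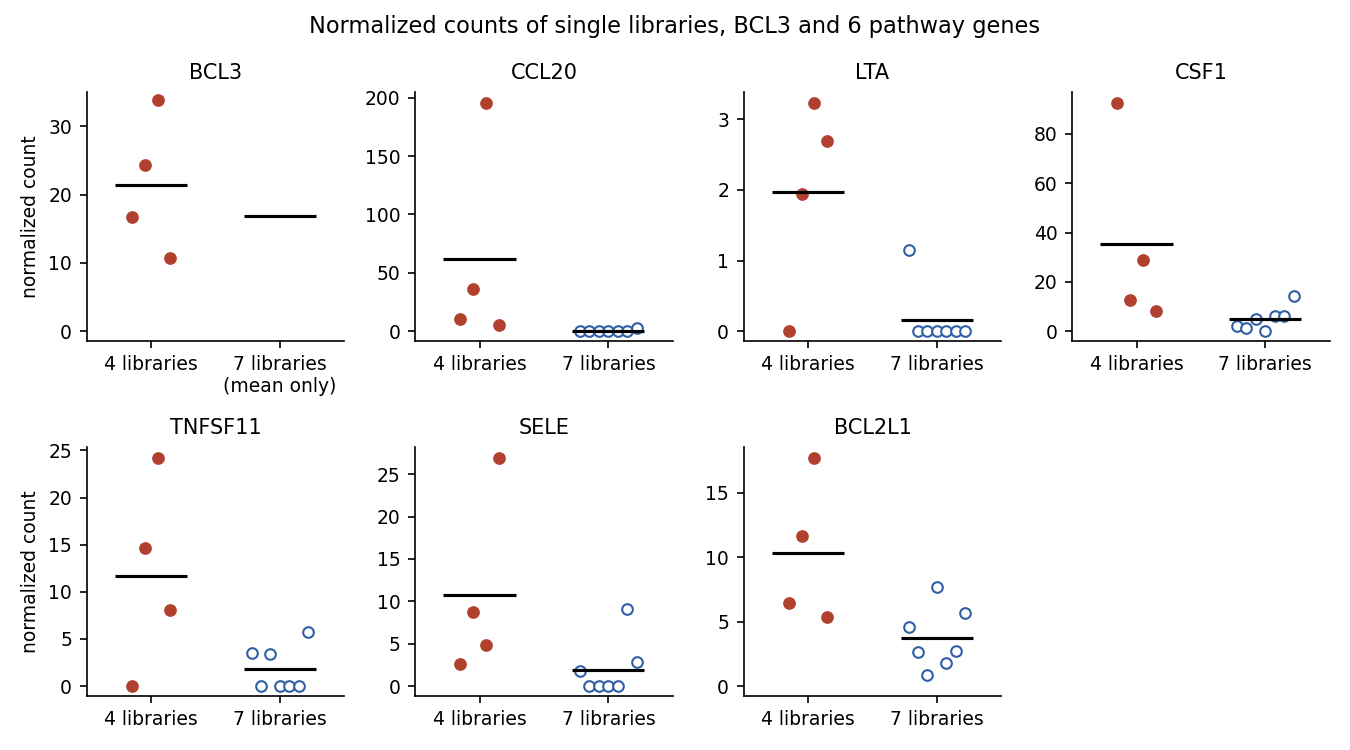
Normalized counts of single libraries (points) for BCL3 and the 6 pathway genes with reads recovered in all 11 libraries, with group means as black lines and a linear axis for each gene. For BCL3 only the mean is known for the 7 libraries. The 4 libraries lie above all 7 for CCL20 alone, and 1 or 2 high libraries carry much of the 4-library mean for CCL20, CSF1 and SELE. Recovery of reads in all libraries favours genes low in the 7 libraries.

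Markers of several blood cell types also differed between these means, and their part in the differences was not tested. In bulk samples, fewer cells of a type and less RNA per cell cannot be told apart. Counts of markers past 2-fold are to be read beside the shares over all rows, 23.9% higher in the 4-library and 10.4% in the 7-library mean. Over rows with an overall mean of at least 10 these were 12.3% and 9.59%. Of 11 neutrophil markers 8 had a row, and 7 of these were at least 2-fold higher in the 7-library mean. The summed mean of the 8 markers was 2157 normalized counts over the 4 libraries and 12505 over the 7 libraries, a log2 ratio of -2.54. The most abundant, S100A9, a calcium-binding protein of the neutrophil cytoplasm, had means of 834.5 and 5429, and CSF3R, the receptor for the neutrophil growth factor, 425 and 1990 with a log2 ratio of -2.23. MPO, the remaining marker, an enzyme of neutrophil granules, had means of 4.44 and 2.34.

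Of 7 platelet markers 4 had a row, 3 were at least 2-fold higher in the 4-library mean (ITGA2B, an integrin chain, only before rescaling to the same total, which gave a log2 ratio of 0.92), and the summed mean was 10525 against 3401 normalized counts, a log2 ratio of 1.63. The most abundant was TUBB1, the platelet form of beta tubulin, with a log2 ratio of 2.17. The glycoprotein genes GP9 and GP1BA, at 1.82 and 0.81, depended on the library with size factor 0.620. Without it GP9 came to 1.01 and GP1BA changed direction, to -0.17. Of 6 erythroid markers 3 had a row and their summed mean was 186 against 487. The most abundant, ALAS2, the enzyme that starts heme synthesis in red cells, had a log2 ratio of -1.48. KLF1, an erythroid transcription factor, lay on the other side at 1.41, from 9 reads in the 4 libraries, and at 0.36 without the library with size factor 0.372 and 2.30 without the 7-group library with size factor 1.17.

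The summed means of monocyte, T cell and B cell markers lay closer together than those of neutrophil, platelet and erythroid markers. The list medians did not all do so, at -0.73 for T cell and -0.52 for B cell markers beside -0.41 for erythroid markers. Of 7 monocyte markers 4 had a row, with a summed mean of 1967 against 2639 normalized counts, and 0 of them were 2-fold apart. The most abundant was LYZ, lysozyme, with a log2 ratio of -0.57. Of 10 T cell markers 4 had a row, with a summed mean of 508 against 795. CD4, the helper T cell coreceptor and the most abundant of them, had a log2 ratio of -1.04, and CD2, an adhesion molecule, was the other gene at least 2-fold higher in the 7-library mean (-1.22). Of 7 B cell markers 4 had a row, with a summed mean of 809 against 853. MS4A1, the most abundant, had a log2 ratio of -0.17, and CD22, an inhibitory receptor, was the 1 gene past 2-fold, higher in the 7-library mean (-1.07), and came under 2-fold when the library with size factor 1.56, 1.03 or 0.620 was left out (-0.98, -0.91 and -0.83), and reached -1.70 without that with 0.372. Of 6 NK cell markers only PRF1, the gene of perforin, had a row, with means of 6.95 and 5.41, a log2 ratio of 0.36 that changed direction, to -0.47, without the library with size factor 1.56. The defining markers CD14, CD3E, CD79A, NKG7 and PF4 matched no row by symbol, so monocytes, T cells, B cells, NK cells and platelets were judged without them.

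**Figure D5:**
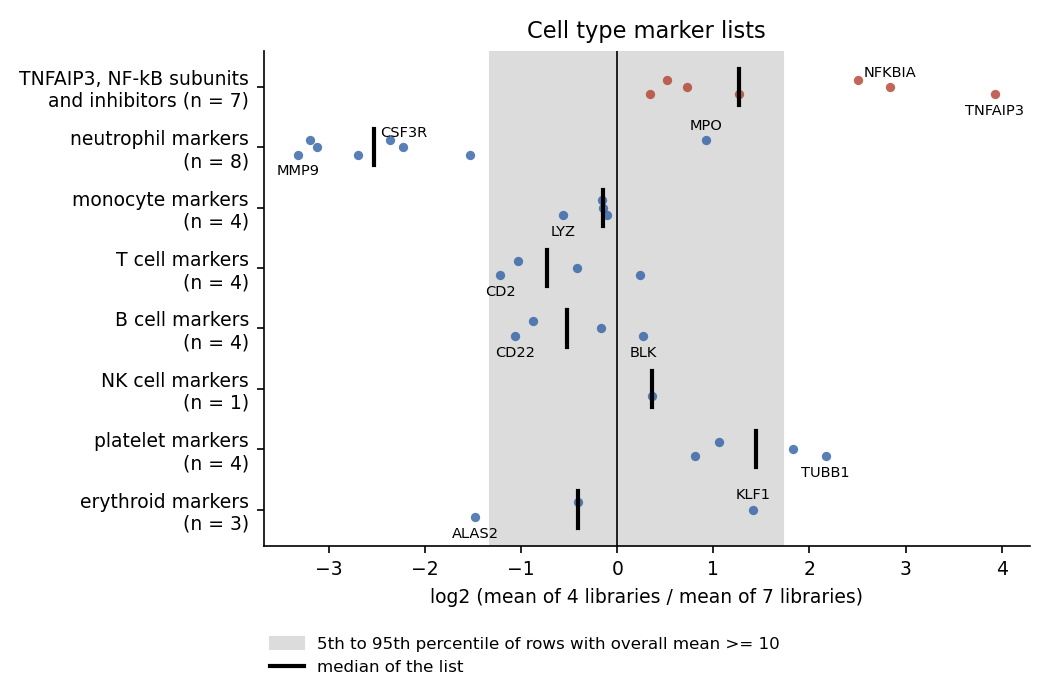
Log2 ratio (4-library mean divided by 7-library mean) for each marker gene with a row (points), by cell type, below TNFAIP3 and the NF-kB subunits and inhibitors. Black bars are list medians, -2.53 for neutrophil and 1.44 for platelet markers, and the shaded band spans the 5th to the 95th percentile of rows with an overall mean of at least 10. The vertical offset within a list has no meaning.

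Within the 4 libraries, markers and NF-kB genes with recovered reads were uneven. Over the 25 NF-kB and pathway genes, the library with size factor 0.620 was the highest in 13, that with 0.372 in 5, that with 1.03 in 4 and that with 1.56 in 3. The library with size factor 0.372 was the lowest or tied for it in 13, those with 0.620 and 1.56 in 5 each and that with 1.03 in 3. Over the 13 marker genes, the libraries with 0.620, 0.372, 1.03 and 1.56 were the highest in 6, 5, 0 and 2 and the lowest or tied in 2, 2, 3 and 6. The library with size factor 0.620 had the highest normalized count of the 4 for BCL3 (33.8), CCL20 (195.0) and IKBKG (124.1), while NFKBIB (94.2), MAP3K14 (131.8) and SELE (26.9) peaked in the library with size factor 0.372 and CSF1 (92.4) in that with 1.56. The library with size factor 0.620 was also the highest for the neutrophil chemokine receptors CXCR1 (122.5) and CXCR2 (167.6), where the others lay between 9.62 and 33.1 and between 12.8 and 43.0. Without it their log2 ratios were -4.43 and -4.26. At the other end they were -2.79 and -2.85, without the library with size factor 1.56. For the platelet glycoprotein genes GP9 (151.5) and GP1BA (178.9) the library with size factor 0.620 was again the highest. These genes were chosen after their values had been seen, and TNFAIP3, NFKBIA and NFKBIZ could not be examined by library.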

How the data were processed

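RNA from manatee buffy coats, 4 of the red tide and 7 of the control group, was sequenced as paired-end reads on an Illumina NextSeq, with a library for each animal. The authors trimmed reads with Cutadapt, mapped them with Bowtie2 to TriManLat1.0, discarded duplicates and reads without a unique position, and counted the rest by gene. The groups were compared by the authors through DESeq within DEB. Neither the annotation release nor the program that counted reads was stated in the sources used here. Each value in the deposited table is a signal, a mean of counts after division by the size factor of the library, for all libraries or for a group. Its other columns hold the authors' fold change, its log2 value, p-value and adjusted p-value, which were not used.

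Records were matched without version to the RefSeq symbols of TriManLat1.0, for 10080 rows and 9641 different symbols. For a listed symbol with several rows, the row with the highest overall mean was taken. The genes and lists were chosen with earlier results of these data known. The genes named are all 10 members, set regulators and ligands of the pathway, in each pathway list the 3 genes with the largest log2 ratio in size among rows with an overall mean of at least 10, and in each marker list the most abundant and the defining genes. Genes past 2-fold that are named outside this rule were chosen after their values had been seen. Some listed genes are not reported here and were left out of the lists and their counts.

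What 1 read is worth in each library was found from the lowest means. Reads were searched up to a 4-library mean of 100 and a 7-library mean of 6, and accepted if exactly 1 set of whole reads matched the mean, in 10143 of 10159 and 4462 of 4505 rows. Recovered libraries are not linked to animals. An exact permutation test had been planned for members with reads in all 11 libraries. No member had them, so no test was run. Intervals cover counting error only. Sequences of promoters and proteins, also planned, were not analysed here. Python 3.11.15, numpy 2.4.6, pandas 2.3.3, scipy 1.17.1 and matplotlib 3.10.9 were used. Alternatives concerned the fold, scaling, low means, unique symbols, a pseudocount of 1 and leaving out single libraries.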

Additional observations from a re-analysis of the deposited data

Results flagged for a closer look

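A library far from the others of its group was found in 4 of 33 groups of libraries examined, over the NF-kB genes and pathway genes with recovered reads. The measure is the gap of the highest or lowest value to its neighbour as a share of the range of the group, and chance flags about 1 in 20 groups when values are normally distributed. Groups with a few reads are not, so the number found is not set against that share. All 4 were high values, and the 3 among them in the 7-library group rested on 2 to 10 reads. For LTA the gap was 1.0, since 1 library (size factor 1.73) held both reads. For CCL20 it was 0.797 in the 7 libraries, where the library with size factor 0.702 held 2 reads, and 0.838 in the 4 libraries, where the library with size factor 0.620 held 121 reads. For SELE it was 0.685, with 10 reads in the 7-group library with size factor 1.10.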

How the results depend on the processing

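The log2 ratios of the 7 NF-kB genes kept their direction and moved by less than the borrowed SD under another scaling, centring, a pseudocount of 1 and summed rows, 28 values in all. This says little about stability. Rescaling lowers each ratio by 0.14, centring subtracts a median of -0.012, and summed rows gave the same values for all 7 genes. The number at least 2-fold higher in the 4-library mean was 4, with 3 at a fold of 4 and 5 at a fold of 1.5. Pathway genes past the fold went from 21 and 11, higher in the 4- and in the 7-library mean, to 13 and 2 at a fold of 4, because the limit is stricter. The share of rows at least 2-fold higher in the 4-library mean fell from 23.9% to 12.3% in rows with an overall mean of at least 10, and the cause was not tested. CCND1 changed direction without the library with size factor 0.372, from a log2 ratio of -0.40 to 0.017. That library held 0 of the 30 CCND1 reads in the 4 libraries. Without the library with size factor 1.03, which held 16 of them, the log2 ratio was -1.19. Why these libraries differed was not tested. Of the markers, GP1BA (0.81) and CD68 (-0.11) changed direction, to -0.17 and 0.13, without the library with size factor 0.620. PRF1 (0.36) did so, to -0.47, without that with 1.56. The library left out held 111 of 210 GP1BA reads, 20 of 253 CD68 reads and 25 of 34 PRF1 reads in the 4 libraries. Why these libraries differed was not tested. At the other end GP1BA reached 1.10 without 1.56, CD68 -0.32 without 0.372 and PRF1 0.63 without 0.372. TNFSF14 went from -1.09 to between -2.26 and -0.68 with single libraries left out. Leaving out libraries for pathway and marker genes, and rescaling markers, were chosen after seeing the data. For BCL3, leaving out single libraries gave 0.029 to 0.56. For the other 6 genes no library could be left out, since their means were too high for reads to be recovered. No paired analysis was possible because the table has group means and recovered libraries carry no replicate number.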
